A study of Mus musculus with 3 samples.

Results

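The fibroblast growth factor (FGF) pathway was examined in bulk RNA-Seq of the maxillary process, the paired facial swelling that forms the upper jaw, from E10.5 mouse embryos of the genotype *Wnt1cre; Rosa26Dlx2/-* (Dlx2-overexpressing, OE, 3 libraries). The 42 genes were chosen by name as FGF ligands, receptors, coreceptors, adaptors, and feedback or target genes, and all 42 had a row among the 55401 gene rows of the count files. In these embryos Cre recombinase under *Wnt1* control removes a stop signal from a *Dlx2-3xFlag* cassette in the *Rosa26* locus. The cassette is thus switched on in cells descended from the neural crest, while surface and oral epithelium lies outside that lineage. The paper states that the endogenous *Dlx2* gene is itself active in maxillary epithelium and in mesenchyme from the neural crest. The 3 libraries shared genotype, stage and tissue, the sources describe them as independent RNA samples, and whether embryos were pooled is not given. All levels are thus from OE tissue, and without wild-type libraries, which were not analysed here, no difference between genotypes was tested.

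FGF ligands are small proteins that bind receptor tyrosine kinases together with heparan sulphate chains on the cell surface. The activated receptor passes its signal through FRS adaptors to RAS and the ERK kinases, and ERK activity raises transcription of ETS factors and of inhibitors that dampen the same pathway. In the early face, FGF8 from the oral epithelium acts on the neural crest mesenchyme beneath it and is needed for its survival and patterning. The FGF11 to FGF14 proteins carry the family name but stay inside the cell, where they bind sodium channels and microtubules.

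Counts on genes were between 35351031 and 40057435 per library. Levels are given in counts per 1000000 counts on genes with TMM scaling (CPM), or in CPM per kilobase of annotated exon where genes are compared with each other, as mean ± SD over the 3 libraries. A count of 0 allows a level of up to 0.0777 to 0.0843 CPM, the value of 3 counts in each library, which covers counting error only. *Dlx2* was at 206 ± 26.7 CPM, a level that does not separate the cassette from the endogenous gene. The 10 markers of facial mesenchyme all reached 1 CPM in each library, with a sum of 1744 to 1929 CPM led by *Prrx1*, and 9 of 10 epithelial markers did too. Libraries nevertheless stood apart. *Xist* was at 671 CPM in replicate 1 and at 0.309 and 0.557 in replicates 2 and 3, while the sum of 4 Y-linked genes was 0 counts in replicate 1 and 146 and 109 CPM in the others. The 9 neuron markers, led by *Tubb3*, summed to 273 CPM in replicate 1 against 24.3 and 35.9, and the 6 glia markers, led by *Sox10*, to 98.2 against 25.2 and 26.4. The 7 eye and forebrain markers, led by *Lhx2*, summed to 25.0 CPM in replicate 1 against 158 and 146. The 9 pigment cell markers, led by *Trpm1*, summed to 15.3, 47.0 and 172 CPM in replicates 1, 2 and 3, with *Tyr* and *Tyrp1* at 0 counts in replicate 1. In replicate 3, genes of up to 2000 exonic bases had a median log2 difference of 0.36 from the mean of the other libraries and genes over 8000 bases had -0.51. Markers of endothelium (led by *Cdh5*, summed CPM 255 to 326), blood (led by *Hbb-y*, 1947 to 4262) and muscle (led by *Msc*, 3.91 to 8.58) were also present.

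The 250 bases before the start of transcription are shown for 4 genes on which the results turn, read from RefSeq on GRCm38.p6, on the strand of the gene. None of the 4 windows overlaps an annotated exon. *Dusp6* was the most abundant of the 42 genes per kilobase, *Fgfrl1* and *Fgf10* stood high among receptors and ligands, and *Fgf18* differed between libraries. Capitals mark the letters CCGGAA or its reverse complement, which hold the GGAA core that ETS factors recognise.
Dusp6, plus strand, chr10:99262981-99263230: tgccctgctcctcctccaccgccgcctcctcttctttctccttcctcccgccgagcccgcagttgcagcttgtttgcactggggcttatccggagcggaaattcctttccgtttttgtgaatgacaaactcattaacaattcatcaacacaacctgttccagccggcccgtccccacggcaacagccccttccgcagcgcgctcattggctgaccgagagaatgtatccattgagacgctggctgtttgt
Fgfrl1, plus strand, chr5:108693979-108694228: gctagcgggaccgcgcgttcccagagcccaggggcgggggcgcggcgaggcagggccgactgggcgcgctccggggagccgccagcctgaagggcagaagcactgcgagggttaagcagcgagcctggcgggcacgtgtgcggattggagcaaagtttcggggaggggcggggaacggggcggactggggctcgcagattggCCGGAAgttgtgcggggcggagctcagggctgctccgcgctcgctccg
Fgf10, plus strand, chr13:118714449-118714698: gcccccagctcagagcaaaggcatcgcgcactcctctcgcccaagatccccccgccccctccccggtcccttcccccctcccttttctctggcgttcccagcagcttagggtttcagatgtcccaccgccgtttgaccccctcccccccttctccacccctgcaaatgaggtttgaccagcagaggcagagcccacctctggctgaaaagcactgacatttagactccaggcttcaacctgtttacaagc
Fgf18, minus strand, chr11:33147401-33147650: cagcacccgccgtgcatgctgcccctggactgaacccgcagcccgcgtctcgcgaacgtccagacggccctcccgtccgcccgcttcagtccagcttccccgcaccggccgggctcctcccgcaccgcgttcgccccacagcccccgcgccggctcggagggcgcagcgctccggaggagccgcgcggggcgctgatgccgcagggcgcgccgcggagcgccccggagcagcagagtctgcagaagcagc
Of these 4 windows only that of *Fgfrl1* held the letters, with the first base 48 bases before the start. Sequences were matched for 33 of the 42 genes, in 42 windows since some genes have several starts. The letters CCGGAA, on either strand, stood in 5 of these windows (11.9%), those of *Fgf5*, *Fgf12*, *Fgfr4*, *Fgfrl1* and *Frs2*, against 12.0% of 32851 windows of the same length. The homeobox letters TAATTA, a core that DLX proteins bind and that is its own reverse complement, stood in 0 of the 42 windows and in 4.84% of all windows. These matches are descriptions of the letters in a short window. *Fgf1*, *Fgf8*, *Fgf15*, *Fgf16*, *Fgf17*, *Fgf20*, *Fgfr1*, *Spry4* and *Etv4* had no entry.

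Of the 42 genes, 25 reached 1 CPM in each library (59.5%, against 54.6% of 21897 protein-coding genes), 4 were at or under 3 counts in every library, and 13 lay between. The share differed between roles. All 5 receptors, both FRS adaptors, all 8 feedback inhibitors and all 3 ETS factors reached 1 CPM in every library. Of the 15 paracrine ligands 5 did so, of the 4 FGF homologous factors 2, and of the 3 endocrine ligands and 2 coreceptors none.

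*Fgf8*, the oral epithelial ligand (ENSMUSG00000025219, chromosome 19 of mm10, 45736798 to 45742915, minus strand), was by far the most abundant ligand. Its counts were 1704, 1461 and 1742 in replicates 1, 2 and 3, or 44.2, 41.0 and 46.2 CPM. The libraries were within 1.13-fold of each other as measured, and the sum of the epithelial markers was 508 CPM in replicate 1 against 339 and 335 in the others. With a fitted trend on exonic length and GC removed, the log2 differences of *Fgf8* from the mean of the other libraries were 0.50, 0.09 and -0.58, against 0.02, -0.14 and 0.12 as measured. Per kilobase of exon *Fgf8* was at 32.5 ± 1.94 CPM, and it made up 75.3 ± 4.60% of the summed level per kilobase of the 18 secreted ligands. In bulk tissue, fewer cells of a type and less RNA per cell cannot be told apart, here or in the values that follow.
*Fgf10*, a ligand that mesenchyme makes and that acts on epithelium (ENSMUSG00000021732, chromosome 13, 118669791 to 118792115, plus strand), came next. It had 690, 542 and 514 counts, or 17.9, 15.2 and 13.6 CPM, and was highest in replicate 1 as measured. With the same trend removed, its log2 differences were 0.03, -0.15 and 0.11. Per kilobase it was at 3.39 ± 0.465 CPM, a range that lay below that of *Fgf8* and above that of every other paracrine ligand. Without regard to length, *Fgf8* had 2.47, 2.70 and 3.39 times the counts of *Fgf10* in replicates 1, 2 and 3.

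The ligands closest to FGF8 in sequence, *Fgf17* and *Fgf18*, were present at lower levels and differed in their spread. *Fgf17* had 102, 99 and 108 counts, or 2.64, 2.78 and 2.87 CPM, with a coefficient of variation of 4.09%, although removing a fitted trend on exonic length and GC gave it log2 differences of 0.32, 0.19 and -0.51. *Fgf18*, which later acts on cartilage and bone precursors (ENSMUSG00000057967, chromosome 11, 33117430 to 33147400, minus strand), had 27, 105 and 108 counts, or 0.700, 2.95 and 2.87 CPM. Replicate 1 was low and replicates 2 and 3 were alike, with a mean of 2.91 CPM, 4.16 times that of replicate 1. With a fitted trend on exonic length and GC removed, replicate 2 stayed above (log2 difference 0.79) and replicate 1 below (-0.79), but replicate 3 was no longer above the mean of the others. Per kilobase, the means of *Fgf18* (1.83 ± 1.07) and *Fgf17* (1.64 ± 0.0670) did not differ beyond their spread.
*Fgf9*, a ligand made by epithelia and by the retina, had 80, 146 and 189 counts, or 2.07, 4.10 and 5.02 CPM. It too was lowest in replicate 1, at a level that the mean of the others exceeded 2.20-fold, and per kilobase it was at 0.802 ± 0.324 CPM, below *Fgf17* without overlap.
*Fgf2*, which like *Fgf1* leaves cells without a classical secretion signal, was the last paracrine ligand to reach 1 CPM in each library, at 1.97, 1.83 and 1.22 CPM. Of its exonic bases 13.2% lie in exons of other genes, among them *Nudt6* on the opposite strand, and the strand setting of the counting is not given in the sources used here.

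The remaining paracrine ligands were near the limit of detection. *Fgf7*, a mesenchymal ligand of the same subfamily as *Fgf10*, had 38, 16 and 28 counts (0.985, 0.450 and 0.743 CPM), and *Fgf1* had 30, 12 and 27 (0.777, 0.337 and 0.717 CPM). *Fgf3*, *Fgf5*, *Fgf16*, *Fgf20* and *Fgf22* had between 0 and 12 counts in each library. *Fgf4* had 1, 1 and 0 counts, and *Fgf6*, a ligand of skeletal muscle, had 0 counts in every library. In the order of levels per kilobase, *Fgf3*, *Fgf1*, *Fgf22*, *Fgf5*, *Fgf16* and *Fgf20* each overlapped the next in range, whereas *Fgf4* and *Fgf6* lay at or under 3 counts in every library and were not ranked.

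**Figure D1:**
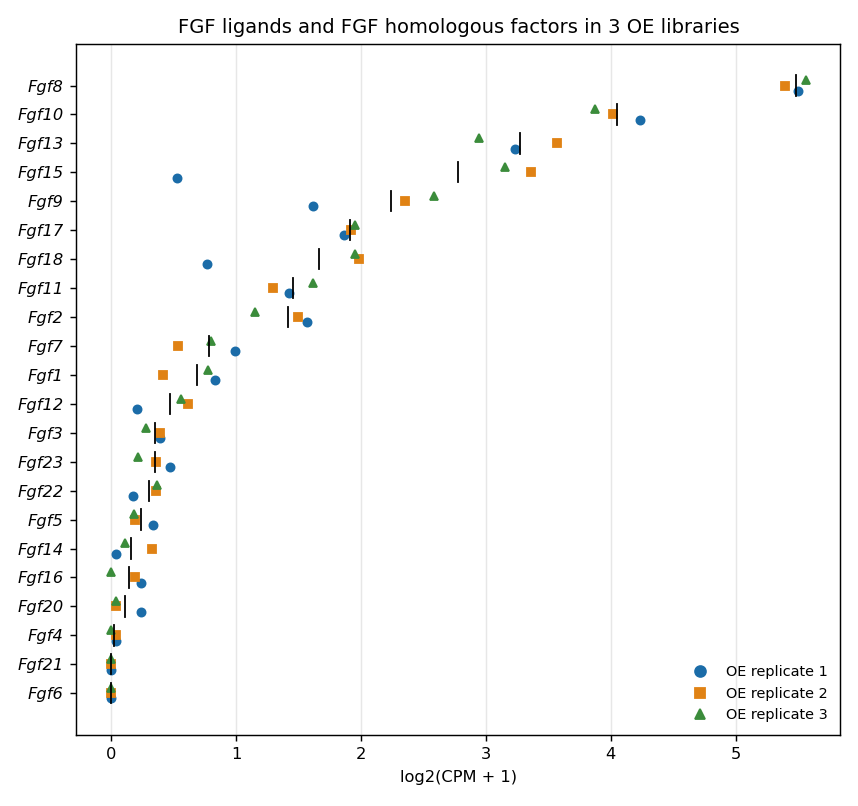
FGF ligands and FGF homologous factors in the 3 OE libraries. Each point is 1 library on a scale of log2(CPM + 1), the black bar marks the mean CPM on that scale, and genes are ordered by mean. *Fgf8* was highest in every library at 41.0 to 46.2 CPM, and the points of *Fgf15* and *Fgf18* in replicate 1 lie far to the left of the others.

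Among the endocrine ligands *Fgf15*, the mouse counterpart of human FGF19 that is also made in the embryonic brain and eye, had the highest ratio between libraries of the 32 genes that averaged 10 counts or more (ENSMUSG00000031073, chromosome 7, 144896531 to 144900953, plus strand). It had 17 counts in replicate 1, 330 in replicate 2 and 298 in replicate 3, or 0.440, 9.27 and 7.91 CPM. Replicate 1 lay far below replicates 2 and 3, whose mean was 19.5 times as high. *Fgf8* therefore had 100.2 times the counts of *Fgf15* in replicate 1 but 4.43 and 5.85 times in replicates 2 and 3. The mean of 5.87 ± 4.75 CPM describes no single library, and without replicate 1 it was 8.59 CPM.
*Fgf15* lies in a cluster with *Fgf3* (144838083 to 144844436) and *Fgf4* (144847367 to 144865243) on the same strand of chromosome 7. *Fgf3* did not share the difference of *Fgf15* between libraries, or its level in replicates 2 and 3. *Fgf4*, at 1, 1 and 0 counts, was too scarce to show a difference between libraries. *Fgf3*, a ligand of the developing ear and hindbrain, had 12, 11 and 8 counts, so *Fgf15* had 1.42 times the counts of *Fgf3* in replicate 1 and 30.0 and 37.2 times in replicates 2 and 3. Exons of genes on the opposite strand cover 25.7% of the exonic bases of *Fgf15*.
*Fgf23*, a hormone of phosphate balance made in bone, had 15, 10 and 6 counts, and *Fgf6*, which lies near it on chromosome 6, had none. *Fgf21*, a metabolic hormone of liver and fat, had 0 counts in every library. The coreceptors of these hormones were as scarce, with *Kl* at 0, 0 and 2 counts and *Klb* at 4, 14 and 11.

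*Fgf15*, *Fgf18* and *Fgf9* were low in replicate 1, in which the markers of eye and forebrain, pigment cells, blood (1947 CPM against 3633 and 4262) and facial mesenchyme (1744 against 1857 and 1929) had their lowest sums. Of the 7 eye and forebrain markers, 7 were lowest in replicate 1, none was at 0 there, and 6 were lower by more than 2-fold than the mean of the other libraries. Their summed level was 25.0 CPM in replicate 1 against 158 and 146. *Fgf15* had the order of libraries of the eye and forebrain sum, and *Fgf9* that of the pigment cell, blood and facial mesenchyme sums. *Fgf18* was also lowest in replicate 1, but its counts of 105 and 108 set no order between replicates 2 and 3. With 3 libraries few orders are possible, so a shared order is a description only. The part of these cell types in the levels of the 3 ligands was not tested. The 10 facial mesenchyme markers did not move together. In replicate 1, 7 were below the mean of the other libraries, among them *Alx1* at 21.4 CPM against 57.8 and 47.8. The other 3, led by *Prrx1* (629 CPM against 582 and 419), were above it, where 50.3% of genes averaging 10 counts or more were.

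**Figure D2:**
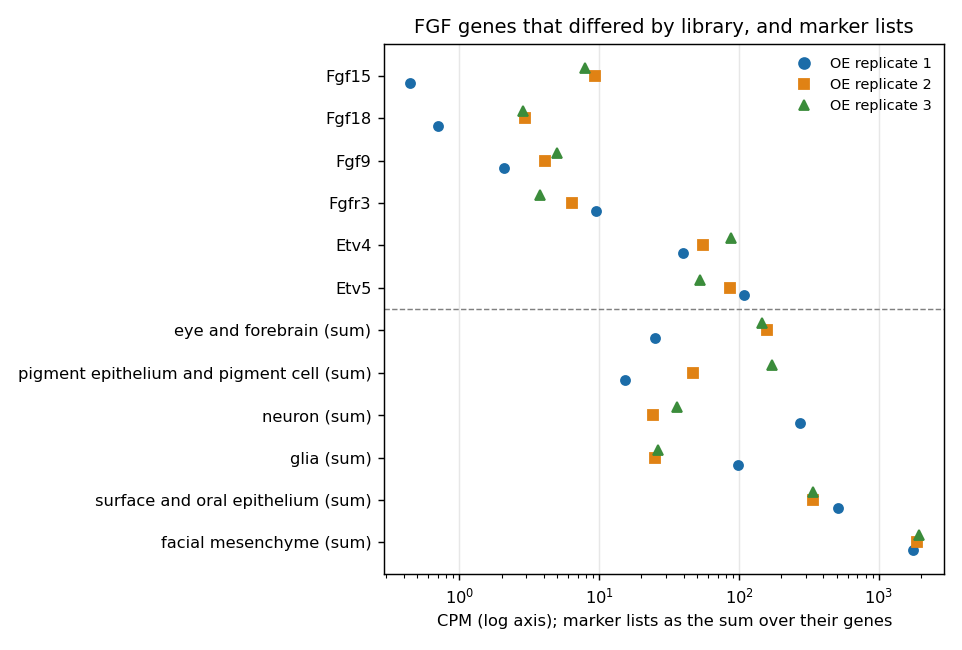
CPM of 6 FGF pathway genes that differed between libraries and the summed CPM of 6 marker lists, on a log axis with 1 point for each OE library. *Fgf15*, *Fgf18*, *Fgf9* and the eye and forebrain markers were lowest in replicate 1, where the neuron and glia markers were highest.

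Of the FGF homologous factors, *Fgf13*, which binds microtubules and sodium channels in neurons, was the most abundant. It had 324, 388 and 253 counts, or 8.39, 10.9 and 6.72 CPM, and was highest in replicate 2. The neuron markers were highest in replicate 1, at 273 CPM against 24.3 and 35.9, and their part in the level of *Fgf13* was not tested. *Fgf11* was at 1.68, 1.46 and 2.07 CPM. *Fgf12* had 6, 19 and 18 counts and *Fgf14* 1, 9 and 3 counts.

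Receptor transcripts were dominated by 3 genes. *Fgfr1*, the main receptor of neural crest mesenchyme (ENSMUSG00000031565, chromosome 8, 25513654 to 25575718, plus strand), had 6021, 6016 and 6663 counts, or 156, 169 and 177 CPM. The libraries stayed close, with the highest 1.13 times the lowest. *Fgfrl1*, a receptor that binds FGF but has no kinase domain (ENSMUSG00000008090, chromosome 5, 108692382 to 108706924, plus strand), had 2448, 2480 and 2649 counts, or 63.4, 69.7 and 70.3 CPM. *Fgfr2*, whose isoforms divide between epithelium and mesenchyme (ENSMUSG00000030849, chromosome 7, 130162451 to 133123350, minus strand), had 3213, 2309 and 2161 counts, or 83.2, 64.9 and 57.4 CPM. It was highest in replicate 1, where the epithelial, neuron and glia markers also had their highest sums, and their part in this was not tested. With a fitted trend on exonic length and GC removed, the log2 difference of *Fgfr2* in replicate 1 was 0.17, against 0.44 as measured. In replicate 3 it was 0.01, against -0.35. *Fgfr2* shares 3.04% of its exonic bases with *Ctbp2* on the same strand. Its isoforms cannot be told apart in counts per gene. The counts of *Fgfr1* were 1.87, 2.61 and 3.08 times those of *Fgfr2* in replicates 1, 2 and 3.
*Fgfr3* and *Fgfr4* were far lower. *Fgfr3*, which is strong in epithelia, neural tissue and later cartilage, had 365, 226 and 141 counts, or 9.46, 6.35 and 3.74 CPM, and replicate 1 was 2.53 times replicate 3. Of its exonic bases, 13.9% lie under exons of a gene on the opposite strand. *Fgfr4*, known from muscle precursors and liver, had 55, 49 and 61 counts, or 1.43, 1.38 and 1.62 CPM.
Per kilobase of all annotated exons, *Fgfrl1* (24.4 ± 1.37 CPM) lay above *Fgfr1* (16.9 ± 1.07), followed by *Fgfr2* (6.63 ± 1.29), *Fgfr3* (0.910 ± 0.400) and *Fgfr4* (0.416 ± 0.0362), with no overlap between neighbours. The first place rested on the length used. *Fgfr1* has 9875 annotated exonic bases but a longest coding transcript of 5041, and with that length *Fgfr1* made up 41.4 ± 2.65% of the receptor level and *Fgfrl1* 36.3 ± 2.04%, against 34.4 ± 1.69% and 49.4 ± 2.02% with all exons. *Fgfr2* came after both with either length, at 13.5 ± 2.84% and 19.8 ± 3.85%.

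**Figure D3:**
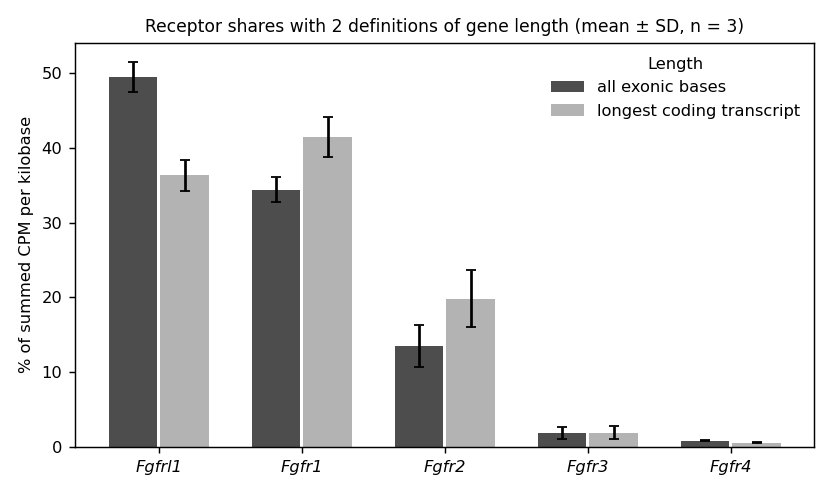
Share of each receptor in the summed CPM per kilobase of the 5 receptors, as mean ± SD over the 3 OE libraries, with gene length taken as all annotated exonic bases (dark) or as the longest coding transcript (light). *Fgfrl1* had 49.4% with the first and 36.3% with the second, and *Fgfr1* 34.4% and 41.4%.

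The FRS adaptors, which link the receptor to RAS, exchanged their order in replicate 3 per kilobase of exon, but not in counts. *Frs2*, the broadly used adaptor, had 1729, 1279 and 819 counts, or 44.8, 35.9 and 21.7 CPM, and was highest in replicate 1. *Frs3* had 241, 283 and 586 counts, or 6.24, 7.95 and 15.6 CPM, and was highest in replicate 3, at 2.19 times the mean of the other libraries. The ratio of *Frs2* to *Frs3* counts was 7.17, 4.52 and 1.40 in replicates 1, 2 and 3. Per kilobase, *Frs2* was above *Frs3* in replicates 1 and 2 (5.12 and 4.11 CPM against 2.00 and 2.54) and below it in replicate 3 (2.49 against 4.97). *Frs2* has 8747 exonic bases and *Frs3* 3128, of which 18.5% are shared with other genes. With a fitted trend on exonic length and GC removed, their log2 differences in replicate 3 were -0.35 and 0.60, against -0.85 and 1.04.

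All 8 feedback inhibitors were expressed. *Dusp6*, a phosphatase that removes phosphate from ERK and serves as a readout of FGF signalling (ENSMUSG00000019960, chromosome 10, 99263231 to 99267489, plus strand), had 5541, 4801 and 4483 counts, or 144, 135 and 119 CPM. It was at 42.3 ± 3.98 CPM per kilobase, above every other inhibitor without overlap, and ranked 1204 of 21897 protein-coding genes. The Sprouty proteins block RAS activation downstream of receptors. *Spry2* was at 41.5, 32.6 and 24.4 CPM, *Spry1* at 35.4, 31.1 and 32.5 and *Spry4* at 22.5, 19.3 and 21.9. *Spry1* and *Spry4* stayed within 1.14-fold and 1.16-fold over the libraries, whereas *Spry2* was 1.70 times as high in replicate 1 as in replicate 3. *Spry1* shares 24.4% of its exonic bases with a gene on the opposite strand.
The SPRED proteins, which recruit neurofibromin to RAS, included both an abundant and a scarce gene. *Spred1* had 5115, 3625 and 2377 counts, or 133, 102 and 63.1 CPM, and *Spred2* was at 67.8, 57.4 and 38.3 CPM. *Spred3* was at 10.3, 11.0 and 13.2 CPM, the reverse order. *Il17rd* (also called Sef), a membrane protein that holds back FGF signalling, had 3829, 3101 and 1803 counts, or 99.2, 87.1 and 47.9 CPM. Per kilobase, the ranges of *Spry2* (15.7 ± 4.10), *Spred1* (14.6 ± 5.13), *Spred2* (11.8 ± 3.24) and *Spry1* (11.4 ± 0.755) each overlapped the next, so their order was not fixed.
As a group, the inhibitors summed to 553, 475 and 360 CPM in replicates 1, 2 and 3. Of the 8 genes, 7 were above the mean of the other libraries in replicate 1, where 50.3% of the 17115 genes that averaged 10 counts or more were, and 6 were below it in replicate 3, where 51.6% were. The median log2 difference of the 8 genes was 0.35 in replicate 1 and -0.40 in replicate 3, and over all those genes it was 0.01 and -0.02. After removal of a fitted trend on exonic length and GC, the medians of the 8 genes were 0.34 and -0.37. The markers of epithelium (508 CPM against 339 and 335), neurons (273 against 24.3 and 35.9) and glia (98.2 against 25.2 and 26.4) also had their highest sums in replicate 1, and their part in these levels was not tested. The 23 genes of the RAS and ERK cascade had medians of 0.43 and -0.56, with 19 above in replicate 1 and 19 below in replicate 3, and medians of 0.26 and -0.38 once the trend was removed.

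Of the ETS factors, whose transcription follows FGF signalling, *Etv5* and *Etv4* stood in opposite order over the libraries. *Etv5* (ENSMUSG00000013089, chromosome 16, 22381309 to 22439719, minus strand) had 4146, 3055 and 1962 counts, or 107, 85.8 and 52.1 CPM. *Etv4* (ENSMUSG00000017724, chromosome 11, 101769742 to 101785371, minus strand) had 1535, 1949 and 3315 counts, or 39.8, 54.8 and 88.0 CPM. *Etv5* was thus highest in replicate 1 and *Etv4* in replicate 3, and the ratio of their counts, on which library scaling has no bearing, was 2.70, 1.57 and 0.592. Averaged over the libraries they were alike, with 19.9 ± 6.80 CPM per kilobase for *Etv5* and 19.6 ± 7.95 for *Etv4*. *Etv1*, the third member of this subfamily, was at 18.7, 17.7 and 11.3 CPM, or 1.19 ± 0.303 per kilobase, well below the others. The summed markers of pigment cells (15.3, 47.0 and 172 CPM), blood (1947, 3633 and 4262) and facial mesenchyme (1744, 1857 and 1929) had the same order of libraries as *Etv4*. Those of epithelium (508, 339 and 335) had that of *Etv5*. Of the 10 mesenchyme markers, 7 were above the mean of the other libraries in replicate 3. The other 3, led by *Prrx1* (629, 582 and 419 CPM), were below it, where 51.6% of genes averaging 10 counts or more were. Of the 10 epithelial markers, 8 were above it in replicate 1 (50.3% of those genes). *Krt18*, the most abundant epithelial marker, was highest in replicate 3 (86.7, 65.5 and 108 CPM). The part of these markers in the levels of *Etv4* and *Etv5* was not tested.

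**Figure D4:**
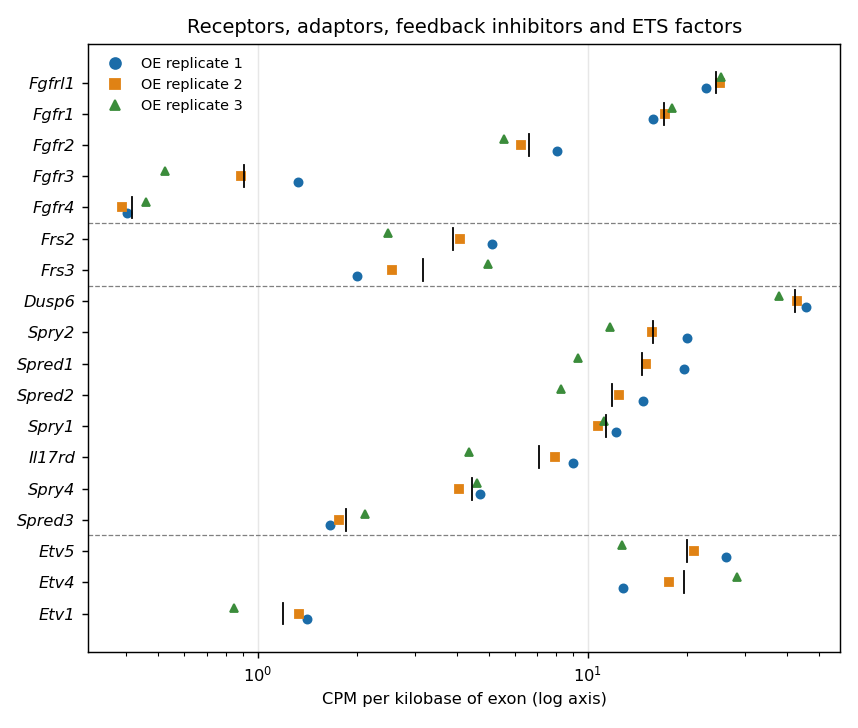
Receptors, adaptors, feedback inhibitors and ETS factors in CPM per kilobase of exon on a log axis, with 1 point for each OE library and a black bar at the mean. *Dusp6* lies highest at 42.3, the *Fgfr1*, *Fgfrl1*, *Spry1* and *Spry4* points lie close together, and the replicate order of *Etv5* is the reverse of that of *Etv4*.

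The spread between libraries was compared with counting noise by a chi-square test for each gene over all libraries (2 degrees of freedom, Benjamini-Hochberg adjustment, threshold 0.05). Of the 32 pathway genes that averaged 10 counts or more, 27 differed by more than counting noise, while 81.5% of all 17115 genes tested did. *Fgf3*, *Fgf11*, *Fgf17*, *Fgf23* and *Fgfr4* did not pass. The test compares these libraries and not conditions. Replicate 1 was the highest library for 18 of the 32 genes (39.6% of all genes tested) and the lowest for 10 (39.3%), and replicate 3 was the highest for 10 (43.2%) and the lowest for 15 (45.6%). The median biological coefficient of variation from edgeR was 0.32 for the pathway genes, 0.25 for the receptors and 0.28 for the feedback inhibitors, against 0.34 over all genes tested.
A gene was called apart where log2(CPM + 1) in 1 library lay more than 2-fold from the mean of the other libraries. *Fgf15*, *Fgf18* and *Frs3* were, which is 3 of the 40 pathway genes with a count, against 7.42% of all 28442 genes with a count. *Fgf15* was below in replicate 1, with a log2 difference of -2.73 (1.13% of all genes were below there). The differences of 1.52 in replicate 2 (0.183% of all genes were above) and 1.21 in replicate 3 (3.63%) follow from that low value, since the 3 differences of a gene sum to 0. *Fgf18* was below in replicate 1 at -1.20, and *Frs3* above in replicate 3 at 1.04.
Each library was then freed of a fitted trend over the exonic length and GC content of its genes. *Fgf15* kept a difference of -2.66 in replicate 1, *Fgf9* went from -0.85 to -1.12, *Fgf18* from -1.20 to -0.79, and *Frs3* in replicate 3 from 1.04 to 0.60. With the trend removed *Fgf15* and *Fgf9* were apart, and 6.62% of all genes were. Among the feedback and target genes in replicate 3, *Etv5* was at -0.87 before and -0.90 after, *Spry2* at -0.57 and -0.61, and *Spred2* at -0.69 and -0.65. The differences of *Spred1* (-0.87 and -0.35), *Il17rd* (-0.94 and -0.56), *Frs2* (-0.85 and -0.35) and *Etv1* (-0.65 and 0.08) were smaller or gone once the trend was removed. *Etv4* stood at 0.90 before and 0.51 after, so *Etv4* and *Etv5* remained on opposite sides.

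**Figure D5:**
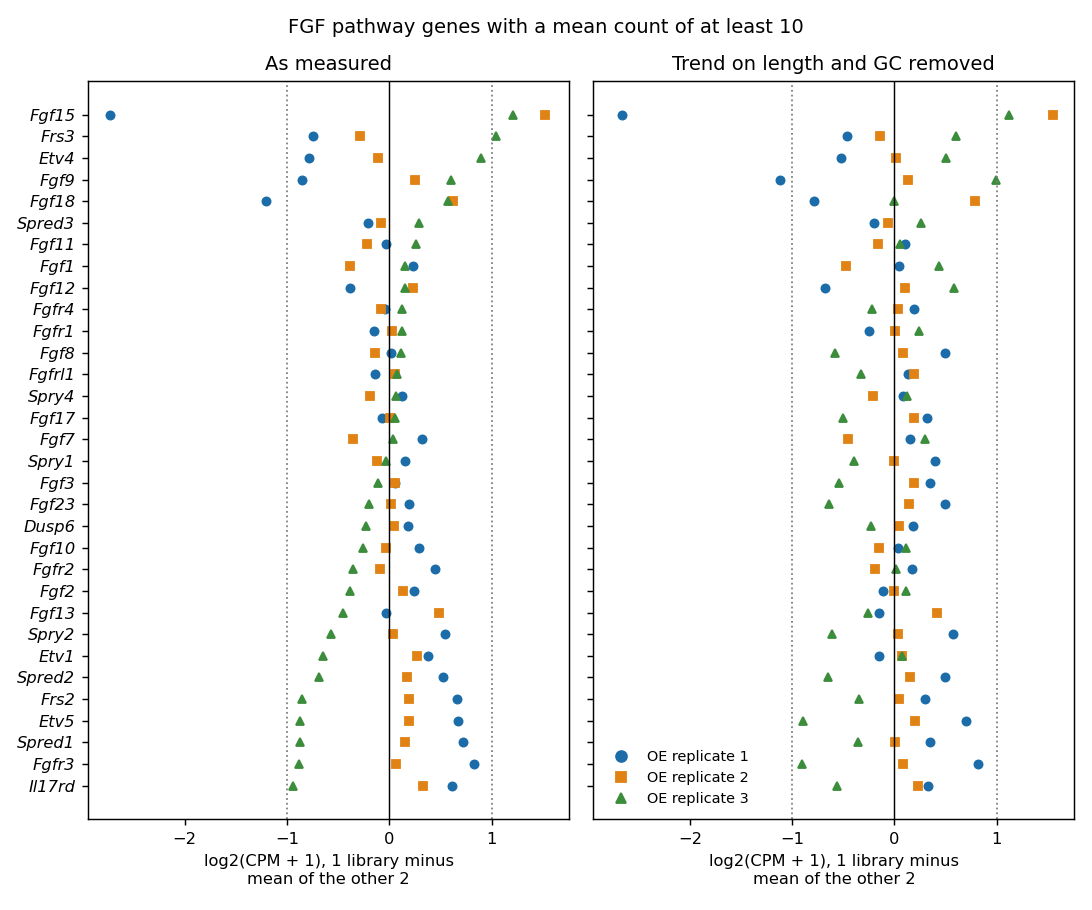
Difference of each OE library from the mean of the other 2 on the log2(CPM + 1) scale, for the 32 pathway genes averaging 10 counts or more, as measured (left) and with a trend on exonic length and GC content removed (right). Dotted lines mark a 2-fold difference, which *Fgf15*, *Fgf18* and *Frs3* pass on the left and *Fgf15* and *Fgf9* on the right.

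The wider pathway, taken from lists of genes outside the 42, was well represented. All 23 genes of the RAS and ERK cascade reached 1 CPM in each library, with a median of 68.5 CPM. The highest CPM, with no adjustment for length, were those of *Map2k2* (MEK2, 356 ± 179 CPM) and *Plcg1* (phospholipase C gamma, 223 ± 8.50). Of the 23, 6 were apart by the same 2-fold rule, each in replicate 3, against 12.3% of the 17115 genes that averaged 10 counts or more. *Map2k2* (560 CPM in replicate 3) and *Hras* (164 CPM) were above (3.63% of all genes with a count were), and *Map2k1*, *Ets1*, *Rasa1* and *Sos2* were below at log2 differences of -1.05, -1.01, -1.10 and -1.05 (3.14% were). With the trend on length and GC removed, only *Map2k1* among these 6 was still past 2-fold in replicate 3, at -1.12.
Of 25 genes for heparan sulphate, its core proteins and other FGF-binding proteins, 23 reached 1 CPM in each library. *Gpc3*, a glypican, was at 657 ± 7.72 CPM and hardly differed between libraries. *Sulf2*, which trims sulphate from these chains, was at 324 ± 53.0 CPM, and the basement membrane proteoglycan *Hspg2* at 294 ± 57.6. *Gpc6* (21.6, 14.5 and 4.70 CPM) and *Hs6st2*, a sulphotransferase (48.5, 29.7 and 15.8 CPM), were apart, above in replicate 1 (1.25% of all genes were) and below in replicate 3 (3.14%). With the trend on length and GC removed, *Gpc6* was past 2-fold only in replicate 3, at -1.33, *Hs6st2* was in neither, at 0.80 and -0.75, and *Hs6st1* went from -0.93 to -1.08 in replicate 3.
Of 10 further ERK phosphatases and genes that respond early to growth factors, 8 reached 1 CPM in each library. *Dusp9*, an ERK phosphatase, had the highest CPM at 261 ± 80.2, followed by *Ccnd1* (192 ± 71.0) and *Ier2* (187 ± 80.3). *Dusp4* (23.7, 17.8 and 6.50 CPM) was above in replicate 1 and below in replicate 3, and *Ccnd1* was below in replicate 3. Of the 9 listed genes that averaged 10 counts or more, 2 were thus apart, against 12.3% of all such genes. With the trend removed, the differences in replicate 3 went from -1.52 to -1.88 for *Dusp4*, from -1.07 to -1.01 for *Ccnd1* and from -0.86 to -1.29 for *Dusp9*. *Fos*, an immediate early gene, had 18, 18 and 20 counts.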

How the data were processed

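Maxillary processes of E10.5 *Wnt1cre; Rosa26Dlx2/-* embryos were profiled in 3 bulk RNA-Seq libraries. Per the submitters' processing notes, reads were checked with FastQC, mapped to mm10 with STAR 2.7.3a and counted with HTSeq 0.12.4. The deposited values are raw counts per gene. The strand setting and annotation release are not given in the sources used here. Rows that name no gene, 14.2% to 16.4% of all counted reads, were left out.
Identifiers were matched to GENCODE M21 (GRCm38), with 55141 of 55401 matched. Scaling used edgeR 4.0.16 (TMM), or DESeq2 1.42.0 size factors as an alternative. The trend used mgcv 1.9.3 over genes averaging 10 counts or more. R 4.3.3, Python 3.11.15 and scipy 1.17.1 were used. The chi-square and 2-fold steps were tested on simulated data.
The 42 genes and the lists were chosen with earlier results of these data known. Named were all 42 genes and, of other pathway lists, the 3 most abundant and those apart in 1 library. *Spry3*, also listed, was not matched. A gene that this rule names is not reported here. *Alx1*, *Fos* and *Hs6st1* were named after their values were seen.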

Additional observations from a re-analysis of the deposited data

How the results depend on the processing

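The differences followed through the alternatives (*Fgf15*, *Fgf18* and *Fgf9* in replicate 1, *Frs3* in replicate 3) kept their sign. With the trend removed, the differences of *Fgf2*, *Fgf8*, *Fgf10*, *Fgf17*, *Fgf18*, *Fgfr2*, *Fgfr4*, *Fgfrl1* and *Etv1* changed sign in replicate 3, for example from 0.12 to -0.58 for *Fgf8*. The order of the first 2 receptors was reversed with another gene length. Leaving out each replicate in turn moved the number of pathway genes reaching 1 CPM in each library between 25 and 27, and the number beyond counting noise between 18 and 23, against 27. Without replicate 1 it was 18 of 32, against 70.8% of all genes, and without replicate 3 it was 23 of 32, against 48.2%. A limit of 10 counts, not 3, left 8 genes at or under it instead of 4. With the longest coding transcript as length the receptor shares were 41.4% for *Fgfr1*, 19.8% for *Fgfr2*, 0.553% for *Fgfr4* and 36.3% for *Fgfrl1*. The number of genes apart in 1 library was 5 with plain CPM (*Fgf15*, *Fgf18*, *Spred1*, *Etv5* and *Il17rd*), 5 with a pseudocount of 0.25 (*Fgf9*, *Fgf15*, *Fgf18*, *Fgfr3* and *Frs3*) and 12 with a 1.5-fold limit, against 3, while 7.92%, 13.4% and 23.5% of all genes were apart under these settings. *Fgf15* was apart under each of these settings. The alternatives for the order of levels, and leaving out libraries for the genes at or under 3 counts, were chosen after seeing the data. No paired analysis was possible because the 3 libraries form 1 group. Depth does not separate ligands with fewer than about 10 counts.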
